A study of Homo sapiens with 12 samples.

Results

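The genes described here are 10 regulators and kinases of the passage from G2 into mitosis, chosen by symbol from a table of estimated counts for 20738 genes: FOXM1, MYBL2, LIN9, LIN52, LIN54, RBL2, PLK1, AURKA, AURKB and TPX2. On GRCh37 they lie at chr12:2966846-2986340 (FOXM1, ENSG00000111206, minus strand), chr20:42295659-42345135 (MYBL2, ENSG00000101057, plus), chr1:226418850-226497570 (LIN9, ENSG00000183814, minus), chr14:74551659-74668196 (LIN52, ENSG00000205659, plus), chr4:83831126-83934079 (LIN54, ENSG00000189308, minus), chr16:53467889-53525560 (RBL2, ENSG00000103479, plus), chr16:23688977-23701688 (PLK1, ENSG00000166851, plus), chr20:54944445-54967393 (AURKA, ENSG00000087586, minus), chr17:8108051-8113918 (AURKB, ENSG00000178999, minus) and chr20:30327074-30389608 (TPX2, ENSG00000088325, plus), and all are protein-coding. All 10 were in the table and all 10 passed the filter on low counts in every comparison. The counts come from RNA-seq of UPCI-SCC-090 and UM-SCC-47, established cell lines grown from squamous tumors of the head and neck that carry human papillomavirus (HPV), so each line stands for 1 tumor. The 4 groups were UPCI-SCC-090 with 500 nM JQ1, UPCI-SCC-090 with 0.1% DMSO, UM-SCC-47 with 500 nM JQ1 and UM-SCC-47 with 0.1% DMSO, each with 3 libraries taken after 72 h. JQ1 is a small molecule that occupies the acetyl-lysine pocket of BET bromodomain proteins, and DMSO is the solvent control.

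MuvB is a small protein complex built on LIN9, LIN52 and LIN54, of which LIN54 contacts DNA. In resting cells MuvB joins the pocket protein p130, the product of RBL2, and E2F4 to form DREAM, which keeps cell cycle genes off. In cycling cells MuvB lets p130 go and takes up B-MYB, the product of MYBL2, and later the forkhead factor FOXM1, and then switches on genes of G2 and mitosis. PLK1, AURKA, AURKB and TPX2 are among those genes. PLK1 drives mitotic entry and spindle assembly, AURKA matures centrosomes, TPX2 activates AURKA on spindle microtubules, and AURKB is the kinase of the chromosomal passenger complex. The comparison asked which of these genes changed with JQ1, and whether the MuvB core changed with the genes it serves.

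The libraries held 20349275 to 30788657 estimated counts each. Epithelial markers (keratins, cell adhesion genes, TP63 and SFN) were summed as CPM (counts scaled to library size, after TMM scaling). They summed to 16442 to 24520 CPM in UPCI-SCC-090 with JQ1 and 7691 to 10597 CPM with DMSO. In UM-SCC-47 the sums were 38837 to 57390 CPM with JQ1 and 10393 to 11943 CPM with DMSO. All 14 epithelial markers were detected in every group, and the most abundant were KRT6A in UPCI-SCC-090 and KRT8 in UM-SCC-47. The median log2 fold change of the 14 was 0.18 in UPCI-SCC-090, where 4 rose and 0 fell. It was 0.13 in UM-SCC-47, where 4 rose and 4 fell. The rises there were KRT18 (2.78), KRT17 (2.33), KRT8 (2.32) and KRT14 (1.12). The falls there were TP63 (-3.02), KRT5 (-1.83), KRT15 (-0.79) and KRT6A (-0.67). The 10 fibroblast markers summed to 2.80 to 5.61 CPM in UPCI-SCC-090 with JQ1 and 20.4 to 30.7 CPM with DMSO, and to 5.45 to 6.65 CPM in UM-SCC-47 with JQ1 and 13.1 to 15.3 CPM with DMSO, with THY1 and POSTN at 0 in all groups. Leukocyte markers summed to at most 44.2 CPM and endothelial markers to at most 8.35 CPM in any library, with CD3D and MS4A1 at 0 in all groups. The part of these marker shifts in the changes given here was not tested. Mitochondrial mRNAs, a sign of RNA quality, summed to 15043 to 24834 CPM in UPCI-SCC-090 with JQ1 and 17480 to 25340 CPM with DMSO, and to 26725 to 27207 CPM in UM-SCC-47 with JQ1 and 30403 to 34304 CPM with DMSO. In 4 libraries the counts followed the GC content of the genes more steeply than in the others: the slope was -0.73 in UPCI-SCC-090 JQ1 replicate 3, 0.43 in UPCI-SCC-090 JQ1 replicate 2, 0.66 in UPCI-SCC-090 DMSO replicate 2 and -0.51 in UM-SCC-47 JQ1 replicate 3, in log2 units per 10 percentage points of GC, against -0.27 to 0.22 in the other 8. The part of these shifts in the results was not tested, except that the results were also computed with a GC correction and without the 3 steepest libraries.

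With DMSO, the regulators and kinases were all more abundant per length than the MuvB core. In UPCI-SCC-090 the order by mean CPM per kilobase of exon was MYBL2 (84.9 ± 22.6), TPX2 (80.7 ± 10.4), FOXM1 (43.3 ± 10.3), AURKB (41.9 ± 10.1), PLK1 (39.2 ± 9.72) and AURKA (24.9 ± 0.753), then RBL2 (6.58 ± 3.23), LIN9 (5.35 ± 2.78), LIN52 (5.26 ± 0.642) and LIN54 (2.00 ± 1.44; SD, n = 3). MYBL2 and TPX2 overlapped, as did FOXM1, AURKB and PLK1 as neighbors, whereas AURKA stood apart from PLK1 above it and from RBL2 below it. In UM-SCC-47 the order was TPX2 (96.9 ± 0.688), MYBL2 (58.5 ± 5.32), AURKA (50.9 ± 2.04), AURKB (31.8 ± 2.21), PLK1 (28.4 ± 2.03), FOXM1 (27.9 ± 0.480), RBL2 (6.86 ± 1.61), LIN52 (4.55 ± 0.188), LIN54 (2.01 ± 0.743) and LIN9 (1.48 ± 0.641; SD, n = 3), with overlap only between AURKB and PLK1, PLK1 and FOXM1, and LIN54 and LIN9. AURKA thus stood above AURKB, PLK1 and FOXM1 in UM-SCC-47 and below all 3 in UPCI-SCC-090. Per kilobase of the longest transcript these places of AURKA held, but some other neighbors changed places. In UM-SCC-47 AURKA (66.3) then stood above MYBL2 (60.0), and FOXM1 (38.7) above PLK1 (32.7). In UPCI-SCC-090 AURKB (74.9) then stood above FOXM1 (60.0).

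**Figure D1:**
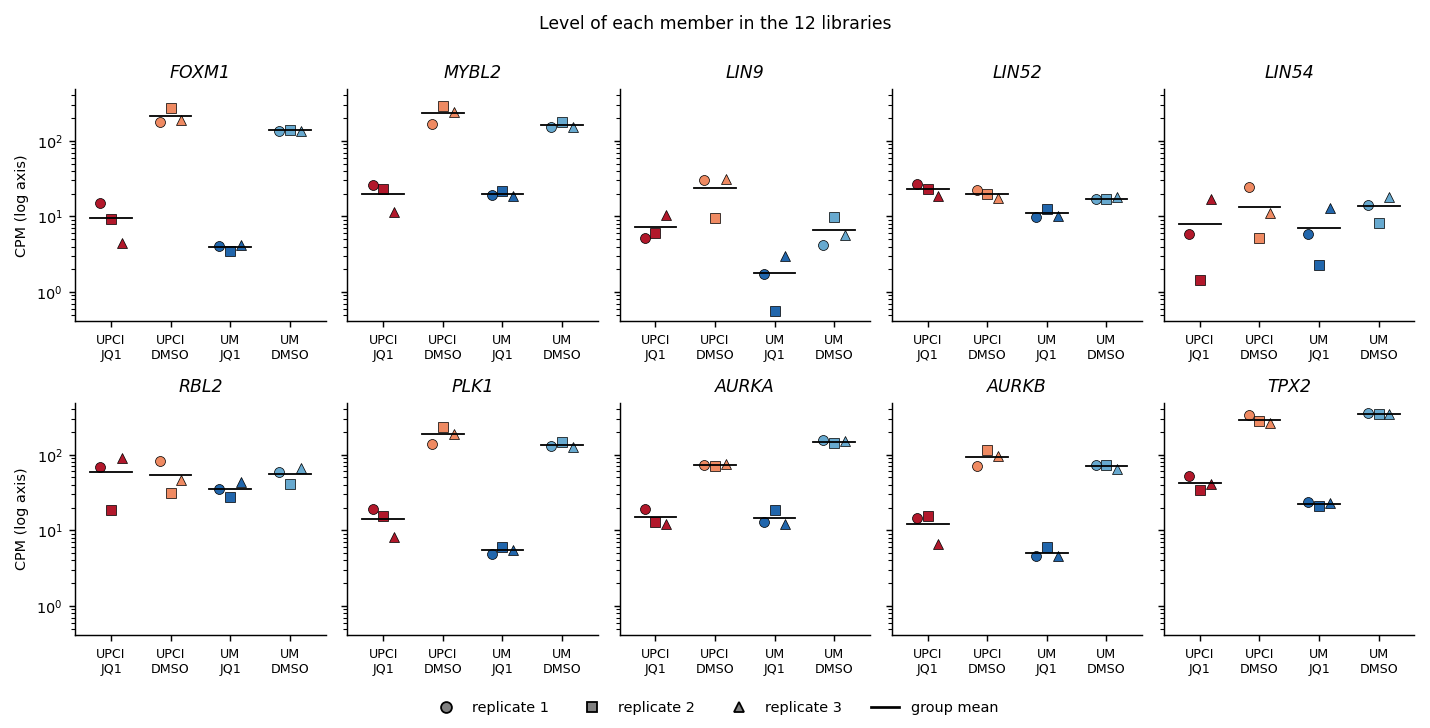
CPM on a log axis of each of the 10 genes in the 12 libraries, by group (UPCI is UPCI-SCC-090, UM is UM-SCC-47), with 1 point per library, its shape giving the replicate number, and a bar at the group mean. FOXM1, MYBL2, PLK1, AURKA, AURKB and TPX2 lie lower in every JQ1 library than in any DMSO library of the same line, while LIN54 and RBL2 overlap between JQ1 and DMSO in both lines.

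FOXM1 had the steepest fall of the 10 genes in both lines. In UPCI-SCC-090 it had 15.1, 9.29 and 4.41 CPM with JQ1, against 179, 271 and 189 CPM with DMSO. In UM-SCC-47 it had 4.05, 3.54 and 4.15 CPM with JQ1, against 136, 140 and 136 CPM with DMSO. The groups were far apart in both lines, and the JQ1 mean was 4.51% of the DMSO mean in UPCI-SCC-090 and 2.85% in UM-SCC-47. The log2 fold change was -4.60 ± 0.48 in UPCI-SCC-090 (SE, adjusted p = 0.0037) and -5.15 ± 0.14 in UM-SCC-47 (SE, adjusted p = 5.09e-05). Only 83 of the 13150 genes tested in UPCI-SCC-090 and 47 of the 13440 tested in UM-SCC-47 had a larger fall.

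MYBL2, which encodes the B-MYB partner of MuvB, fell less steeply than FOXM1. It had 25.8, 22.9 and 11.3 CPM in UPCI-SCC-090 with JQ1, against 169, 294 and 244 CPM with DMSO. In UM-SCC-47 its levels were 19.4, 21.8 and 18.7 CPM with JQ1, against 153, 179 and 154 CPM with DMSO. All JQ1 libraries thus lay well below all DMSO libraries, with log2 fold changes of -3.68 ± 0.35 in UPCI-SCC-090 (adjusted p = 0.0037) and -3.04 ± 0.14 in UM-SCC-47 (adjusted p = 0.000129). Per kilobase of exon, MYBL2 had 7.19 CPM in UM-SCC-47 with JQ1, where it was the most abundant of the 10 genes, and FOXM1 had 0.795 CPM.

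PLK1, the polo-like kinase of mitotic entry, came closest to FOXM1. In UPCI-SCC-090 it had 18.9, 15.6 and 8.06 CPM with JQ1, against 139, 231 and 190 CPM with DMSO. In UM-SCC-47 it had 4.90, 6.07 and 5.41 CPM with JQ1, against 132, 146 and 127 CPM with DMSO. The groups did not overlap, and the log2 fold change was -3.84 ± 0.35 in UPCI-SCC-090 (adjusted p = 0.0037) and -4.64 ± 0.15 in UM-SCC-47 (adjusted p = 7.11e-05).

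AURKB, the kinase that corrects kinetochore attachments, had 14.6, 15.3 and 6.56 CPM in UPCI-SCC-090 with JQ1, against 70.3, 116 and 96.1 CPM with DMSO. In UM-SCC-47 it had 4.61, 6.07 and 4.55 CPM with JQ1, against 74.2, 74.2 and 65.6 CPM with DMSO. These groups were separate too, with log2 fold changes of -3.09 ± 0.36 (adjusted p = 0.00379) in UPCI-SCC-090 and -3.83 ± 0.18 (adjusted p = 0.000129) in UM-SCC-47.

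AURKA and its activator TPX2 differed in their starting levels. AURKA had 19.2, 12.8 and 12.3 CPM in UPCI-SCC-090 with JQ1, against 74.2, 70.4 and 74.2 CPM with DMSO, and 12.9, 18.4 and 12.1 CPM in UM-SCC-47 with JQ1, against 155, 143 and 150 CPM with DMSO. The JQ1 levels of both lines overlapped, while the DMSO level was higher in UM-SCC-47. TPX2 had 53.0, 33.9 and 40.4 CPM in UPCI-SCC-090 with JQ1, against 334, 277 and 263 CPM with DMSO, and 23.6, 20.9 and 23.0 CPM in UM-SCC-47 with JQ1, against 351, 350 and 347 CPM with DMSO. Per kilobase of exon TPX2 had 6.23 CPM and AURKA 4.94 CPM in UM-SCC-47 with JQ1, where they overlapped, and 96.9 and 50.9 CPM with DMSO, where they did not. AURKA changed by -2.41 ± 0.28 on the log2 scale in UPCI-SCC-090 (adjusted p = 0.00392) and -3.38 ± 0.20 in UM-SCC-47 (adjusted p = 0.000155), and TPX2 by -2.88 ± 0.29 (adjusted p = 0.0037) and, in UM-SCC-47, by -3.97 ± 0.11 (adjusted p = 5.09e-05).

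All 6 regulators and kinases fell in both lines, against 20.4% of the genes tested in UPCI-SCC-090 and 25.5% of those in UM-SCC-47 that fell, and none rose, against 7.67% and 16.1% of genes that rose. The 6 had no overlap between JQ1 and DMSO in either line, where all JQ1 libraries lay below all DMSO libraries for 24.4% of genes in UPCI-SCC-090 and 32.5% in UM-SCC-47. Their median log2 fold change was -3.38 in UPCI-SCC-090 and -3.90 in UM-SCC-47, where the median over all genes tested was -0.14 and -0.03. The 6 calls held in all 16 alternatives run in each line, with adjusted p up to 0.0237 in UPCI-SCC-090 and 0.00248 in UM-SCC-47. In bulk RNA, fewer cells in G2 and mitosis and less RNA per such cell cannot be told apart.

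With library size alone the median over all genes was -0.38 in UPCI-SCC-090 and -0.28 in UM-SCC-47, and with relative log expression factors it was 0.14 and 0.12. Of all calls in UPCI-SCC-090, 27.4% were rises, which became 17.1% with library size alone, 42.3% with relative log expression factors, 43.2% with DESeq2 and 55.9% with the GC correction. The matching shares in UM-SCC-47 were 38.7%, 24.1%, 48.0%, 50.6% and 57.3%.

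**Figure D2:**
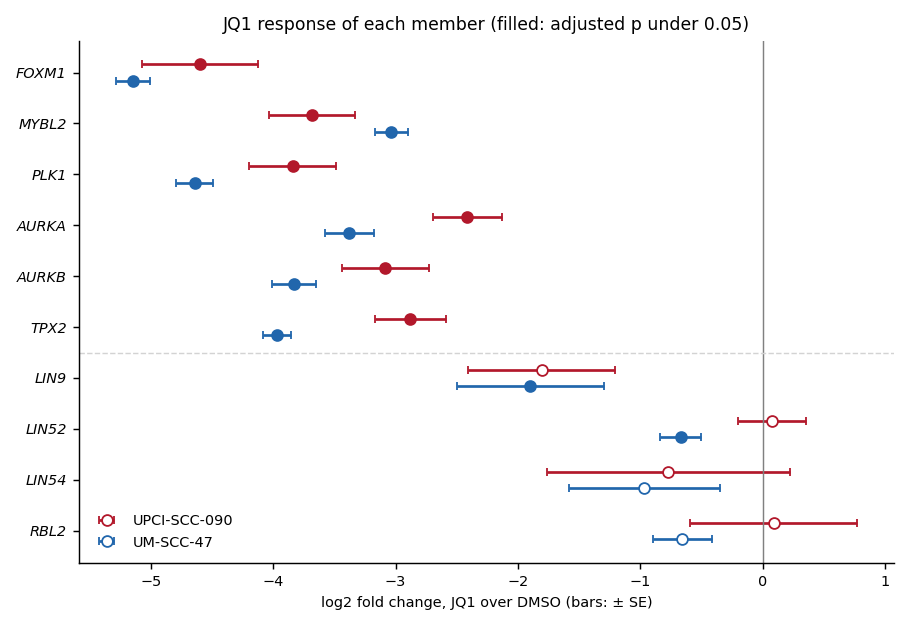
Log2 fold change of JQ1 over DMSO for each of the 10 genes (points, with bars of ± SE), UPCI-SCC-090 in red above UM-SCC-47 in blue; filled points had an adjusted p under 0.05. The 6 regulators and kinases above the dashed line lie between -5.15 and -2.41, and the MuvB core and RBL2 below it lie between -1.90 and 0.09.

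The constitutive part of the complex changed less, but it was not flat. LIN9 fell in UM-SCC-47 (2 of the 3 core genes fell there, LIN9 and LIN52, both without overlap, against 25.5% of all genes that fell and 32.5% without overlap) and had a point estimate of the same size in UPCI-SCC-090, where 0 of the 3 core genes passed the test. LIN9 had 5.16, 6.00 and 10.4 CPM in UPCI-SCC-090 with JQ1, against 30.0, 9.54 and 31.7 CPM with DMSO. In UM-SCC-47 it had 1.75, 0.56 and 2.98 CPM with JQ1, against 4.24, 9.74 and 5.71 CPM with DMSO. The groups overlapped in UPCI-SCC-090, through JQ1 replicate 3 and DMSO replicate 2, and not in UM-SCC-47, where the lowest JQ1 library held only 10 reads of the gene. The log2 fold change was -1.81 ± 0.60 in UPCI-SCC-090 (adjusted p = 0.0673) and -1.90 ± 0.60 in UM-SCC-47 (adjusted p = 0.0441). The UM-SCC-47 call was lost without JQ1 replicate 1 (adjusted p = 0.128), DMSO replicate 1 (0.0643), DMSO replicate 2 (0.138) or DMSO replicate 3 (0.0902), and with the replicate block (0.0693). In UPCI-SCC-090, without the 2 libraries with the steepest GC trends, the change was -2.42 and passed (adjusted p = 0.00438), as it did with the GC correction (-1.64, adjusted p = 0.0115) and in 8 of the 16 alternatives in all.

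LIN52, the subunit through which p130 or B-MYB is held, had the narrowest spread of the core. It had 27.1, 22.7 and 18.7 CPM in UPCI-SCC-090 with JQ1, against 22.5, 19.7 and 17.6 CPM with DMSO, and 9.96, 12.6 and 10.2 CPM in UM-SCC-47 with JQ1, against 16.8, 16.9 and 18.1 CPM with DMSO. The groups overlapped in UPCI-SCC-090 and were separate in UM-SCC-47. The log2 fold change was 0.08 ± 0.28 in UPCI-SCC-090 (adjusted p = 0.871), which turned to -0.14 with library size alone and -0.0060 without DMSO replicate 3, and -0.67 ± 0.17 in UM-SCC-47 (adjusted p = 0.0197). The UM-SCC-47 call was lost in 11 of 16 alternatives, among them 5 of the 6 that left out 1 library, with adjusted p up to 0.171 under the GC correction.

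LIN54, the DNA-binding subunit, overlapped between JQ1 and DMSO in both lines. It had 5.78, 1.45 and 16.9 CPM in UPCI-SCC-090 with JQ1, against 24.3, 5.21 and 11.04 CPM with DMSO, and 5.91, 2.30 and 12.8 CPM in UM-SCC-47 with JQ1, against 14.1, 8.31 and 18.3 CPM with DMSO. Replicate 2 was the lowest and replicate 3 or 1 the highest in each group. The log2 fold change was -0.77 ± 0.99 in UPCI-SCC-090 (adjusted p = 0.625) and -0.97 ± 0.62 in UM-SCC-47 (adjusted p = 0.254). It was -2.19 (adjusted p = 0.0305) in UPCI-SCC-090 without the 2 libraries with the steepest GC trends, the 1 alternative of 16 in which it passed there. In UM-SCC-47 it passed in 5 of 16, with -1.62 (adjusted p = 0.0236) without JQ1 replicate 3, -1.16 (0.0192) with the GC correction, -1.20 (0.0317) with the replicate block and -1.20 (0.00378) with the block and GC correction; the fifth is the fit without the steepest library, which is JQ1 replicate 3.

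RBL2, the p130 gene, did not pass the test in either line. In UPCI-SCC-090 it had 69.2, 18.8 and 89.3 CPM with JQ1, against 82.3, 31.2 and 46.6 CPM with DMSO. In UM-SCC-47 it had 35.7, 27.9 and 43.2 CPM with JQ1, against 58.2, 41.4 and 67.2 CPM with DMSO, the highest JQ1 library lying just above the lowest DMSO library. The log2 fold change was 0.09 ± 0.68 in UPCI-SCC-090 (adjusted p = 0.942) and -0.66 ± 0.24 in UM-SCC-47 (adjusted p = 0.0721). The UM-SCC-47 change passed in 8 of 16 alternatives, among them the fits without JQ1 replicate 3 (0.0437) and without DMSO replicate 2 (0.0462). The UPCI-SCC-090 estimate turned to -0.19 with library size alone and to -0.46 without the 2 libraries with the steepest GC trends.

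In UPCI-SCC-090 JQ1 replicate 3 and DMSO replicate 2, the levels of 7 of these genes moved with the GC trend, and that of LIN52 did not. LIN9, LIN52, LIN54 and RBL2 have transcripts of 39.1% to 43.1% GC, AURKA and TPX2 of 46.6% and 46.8%, and FOXM1, MYBL2, PLK1 and AURKB of 55.6% to 60.5%. In UPCI-SCC-090 JQ1 replicate 3, where GC-rich genes had relatively fewer counts, LIN9, LIN54 and RBL2 had their highest JQ1 level and FOXM1, MYBL2, PLK1 and AURKB their lowest. In UPCI-SCC-090 DMSO replicate 2, with the opposite trend, LIN9, LIN54 and RBL2 had their lowest DMSO level and FOXM1, MYBL2, PLK1 and AURKB their highest. LIN52, as GC-poor as RBL2, had its lowest JQ1 level (18.7 CPM) in that JQ1 library and its middle DMSO level (19.7 CPM) in that DMSO library. Without these libraries the falls in UPCI-SCC-090 were smaller for FOXM1 (-3.84), MYBL2 (-3.02), PLK1 (-3.19) and AURKB (-2.42), and for AURKA (-2.14) and TPX2 (-2.71), and all 6 still passed (adjusted p up to 0.00731). The pattern held only in part in UM-SCC-47 JQ1 replicate 3, where GC-rich genes also had relatively fewer counts. There LIN9, LIN54 and RBL2 had their highest JQ1 level and MYBL2 and AURKB their lowest. FOXM1, however, had its highest JQ1 level there (4.15 CPM) and PLK1 its middle one (5.41 CPM). The pattern also held only in part in UPCI-SCC-090 JQ1 replicate 2, where GC-rich genes had relatively more counts. LIN54 and RBL2 had their lowest JQ1 level in that library and AURKB its highest (15.3 CPM). FOXM1 (9.29 CPM), MYBL2 (22.9 CPM), PLK1 (15.6 CPM) and LIN9 (6.00 CPM) had their middle JQ1 level in it.

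Some reads could not be assigned to one gene with certainty. FOXM1 shares 782 exonic bases with ITFG2 on the opposite strand, RBL2 shares 609 with AKTIP and PLK1 shares 58 with ERN2. Of genes that are not in the count table, PLK1 shares 553 with the lncRNA ENSG00000261266 and RBL2 shares 721 with ENSG00000279344, both on the opposite strand, and AURKA has the processed pseudogenes AURKAP1 and AURKAP2 and AURKB has AURKBP1. The kit keeps strand, but no source used here gives the strand setting of the counting.

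Within each library, the 6 regulators and kinases were given as the log2 ratio to the mean of LIN9, LIN52 and LIN54. This ratio to the MuvB core does not depend on the scaling between libraries, but it does not remove their GC trends. The core transcripts have 39.1% to 42.7% GC, and those of FOXM1, MYBL2, PLK1 and AURKB 55.6% to 60.5%. No ratio was computed with the GC correction. FOXM1 had ratios of 0.70, 0.67 and -1.75 in UPCI-SCC-090 with JQ1, against 2.82, 4.77 and 3.37 with DMSO. In UM-SCC-47 the ratios of FOXM1 were -0.21, 0.48 and -0.82 with JQ1, against 3.77, 3.66 and 3.46 with DMSO. The ratio of FOXM1 thus centered near 0 with JQ1 in both lines and lay well above it in every DMSO library. These ratios are of CPM and not per length. The lowest and highest ratios of FOXM1, -1.75 and 4.77, were in UPCI-SCC-090 JQ1 replicate 3 and DMSO replicate 2. The GC slopes of these libraries were -0.73 and 0.66. The mean ratio of FOXM1 with JQ1 minus that with DMSO was -3.78 in UPCI-SCC-090 and -3.81 in UM-SCC-47, and that of PLK1 was -2.93 and -3.30. MYBL2 had -2.77 in UPCI-SCC-090 and -1.69 in UM-SCC-47, and AURKB had -2.18 and -2.50. The mean ratio of TPX2 was 2.16 with JQ1 and 4.12 with DMSO in UPCI-SCC-090, and 2.34 with JQ1 and 4.97 with DMSO in UM-SCC-47. AURKA had mean ratios of 0.63 with JQ1 and 2.13 with DMSO in UPCI-SCC-090, and 1.68 with JQ1 and 3.74 with DMSO in UM-SCC-47. For all 6 genes and both lines the JQ1 libraries lay below the DMSO libraries. Relative to LIN9 alone every mean ratio was lower with JQ1 as well, but the groups overlapped for AURKA, AURKB and TPX2 in UPCI-SCC-090 and for MYBL2, AURKA, AURKB and TPX2 in UM-SCC-47. Relative to LIN54 alone they overlapped for MYBL2, PLK1, AURKA, AURKB and TPX2 in UPCI-SCC-090 and for MYBL2 in UM-SCC-47, and relative to LIN52 alone for none.

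RBL2 had a higher mean ratio to the mean of the 3 core genes with JQ1 in both lines. Its log2 ratio was 2.89, 1.69 and 2.59 in UPCI-SCC-090 with JQ1, against 1.70, 1.65 and 1.34 with DMSO, where the second JQ1 library overlapped. In UM-SCC-47 the ratio of RBL2 was 2.93, 3.46 and 2.57 with JQ1, against 2.54, 1.90 and 2.44 with DMSO, with no overlap. The mean ratio was higher with JQ1 by 0.83 in UPCI-SCC-090 and by 0.69 in UM-SCC-47, given as values with no test. This did not hold against each core gene: the log2 fold change of RBL2 was close to that of LIN52 in both lines (0.09 and 0.08 in UPCI-SCC-090, -0.66 and -0.67 in UM-SCC-47), and the estimates of LIN9 and LIN54 were lower.

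**Figure D3:**
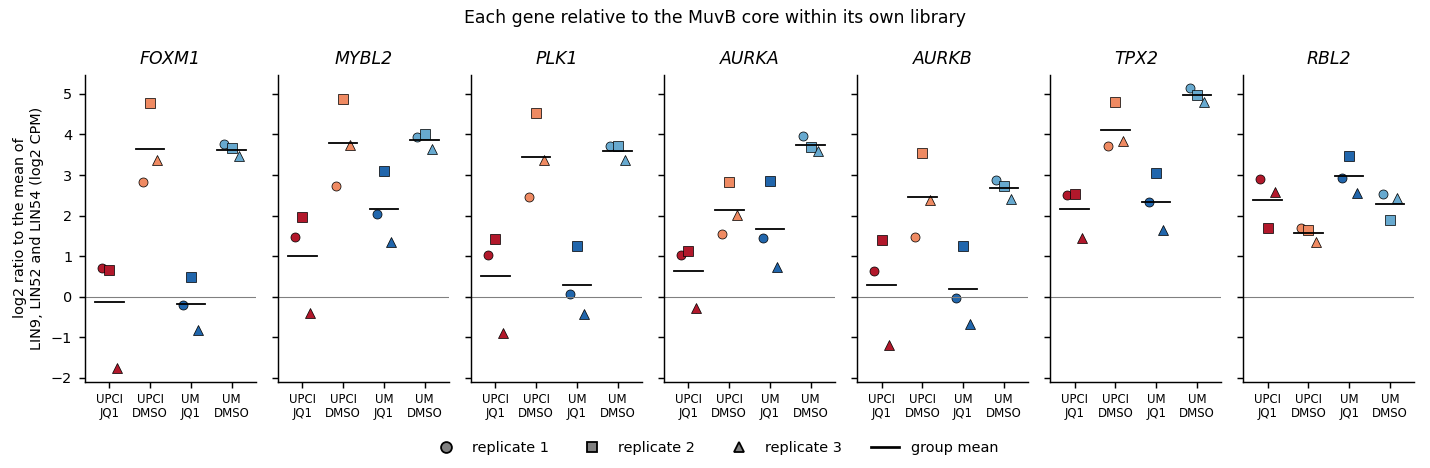
Log2 ratio of each gene to the mean of LIN9, LIN52 and LIN54 (of log2 CPM) in the same library, by group (UPCI is UPCI-SCC-090, UM is UM-SCC-47), with 1 point per library and a bar at the group mean. The ratio of FOXM1 centers near 0 with JQ1 (means of -0.13 and -0.18) and near 3.65 and 3.63 with DMSO, and RBL2 alone has a higher mean with JQ1.

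Promoter sequence was looked at because the genes share a DNA-binding complex and because LIN54 binds the cell cycle gene homology region (CHR). RefSeq windows of 250 bases before to 50 after an annotated start (GRCh38.p14) were at hand for 7 of the 10 genes, 12 windows in all; FOXM1, AURKA and TPX2 had none. The motifs searched on both strands were CHR (TTTGAA or TTCGAA), a CDE-like box (GGCGG), the NF-Y box (CCAAT), E2F (TTTCCCGC, TTTGGCGC or TTCCCGCC, which can overlap each other and the CDE-like box), MYB (AACGG or AACTG) and FOX (TAAACA). Of all 35116 windows, 16.4% held the CHR letters, 59.0% the CDE-like box, 34.6% the NF-Y box, 4.59% an E2F form, 52.4% a MYB form and 12.3% the FOX letters. The 5 stretches below show where those letters stand in 1 kinase gene, 1 activator gene and the 3 core genes. Capitals mark CHR and NF-Y matches in PLK1, CHR matches in LIN9 and LIN54, the overlapping E2F matches in LIN52 and CDE-like matches on either strand in MYBL2, of which the first begins before the stretch shown. Each runs 5′ to 3′ from base -120 to base -1 before the start, and for LIN9 on to base 10 after it, and lies at chr16:23678769-23678888 (plus strand) for PLK1, chr1:226309155-226309284 (minus) for LIN9, chr4:83010824-83010943 (minus) for LIN54, chr14:74084836-74084955 (plus) for LIN52 and chr20:43666994-43667113 (plus) for MYBL2.
PLK1: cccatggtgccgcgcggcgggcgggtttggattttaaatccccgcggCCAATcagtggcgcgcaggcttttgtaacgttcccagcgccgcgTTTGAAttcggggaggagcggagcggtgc
MYBL2: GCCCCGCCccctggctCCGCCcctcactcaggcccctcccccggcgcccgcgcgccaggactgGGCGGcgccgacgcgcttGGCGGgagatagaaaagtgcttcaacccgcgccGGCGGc
LIN9: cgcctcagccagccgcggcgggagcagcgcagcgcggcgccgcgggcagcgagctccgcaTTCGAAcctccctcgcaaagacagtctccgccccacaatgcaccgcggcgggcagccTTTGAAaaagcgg
LIN52: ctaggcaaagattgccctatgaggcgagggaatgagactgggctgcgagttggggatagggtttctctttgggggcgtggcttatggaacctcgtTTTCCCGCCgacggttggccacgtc
LIN54: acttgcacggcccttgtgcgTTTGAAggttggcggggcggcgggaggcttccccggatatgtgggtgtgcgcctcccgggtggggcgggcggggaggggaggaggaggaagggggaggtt

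In PLK1 the CHR letters stand at bases -29 to -24, with an NF-Y box at -73 to -69. LIN9 has CHR letters at -60 to -55 and across the start at -3 to 3, in 1 of its 3 windows. LIN54 has them at -100 to -95. In RBL2 they fall after the start, at 25 to 30. MYBL2, LIN52 and both AURKB windows had no CHR letters. The AURKB windows overlap, and both held the same NF-Y box on the minus strand. An NF-Y box also stood in LIN52, at -246 to -242 on the minus strand, and in RBL2 window 2, at -30 to -26. LIN52 was the single gene of the 7 with a match to the E2F letters searched, at -25 to -17. Other forms of an E2F site were not searched. The CHR letters were thus found in PLK1, whose log2 fold change in UM-SCC-47 was -4.64, in the core genes LIN9 (-1.90) and LIN54 (-0.97) and in RBL2 (-0.66), and not in MYBL2 (-3.04). A match of letters does not show that the complex binds there.

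**Figure D4:**
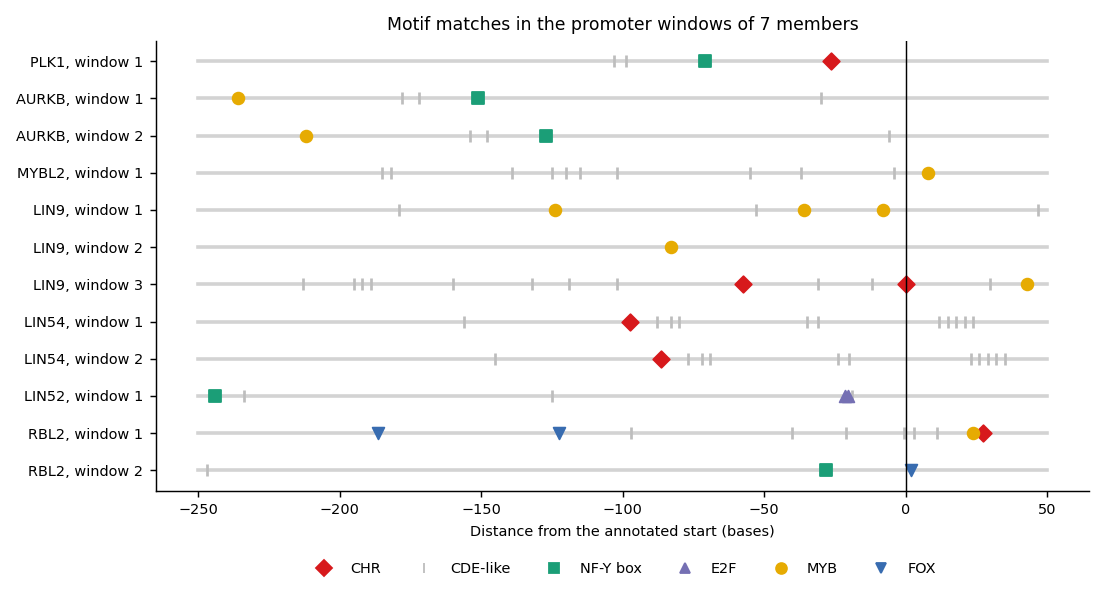
Matches of 6 motifs in the 12 promoter windows of 7 genes, as the distance in bases from the annotated start (vertical line); 1 row is 1 window, and the symbols give the motif. CHR matches (red) stand in PLK1, LIN9 window 3, both LIN54 windows and RBL2 window 1.

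Between the lines with DMSO, 2 of the 10 genes differed, against 43.2% of all genes tested. AURKA was lower in UPCI-SCC-090, at 72.9 ± 2.20 CPM, than in UM-SCC-47, at 149 ± 5.97 CPM (SD, n = 3 each), a log2 difference of -1.03 ± 0.23 (adjusted p = 0.00327) that passed in all 16 alternatives. LIN9 was higher in UPCI-SCC-090, by 1.86 ± 0.60 (adjusted p = 0.0267), though the groups overlapped and the call was lost in 4 of the 6 fits without 1 library. FOXM1, MYBL2, PLK1 and AURKB had higher means in UPCI-SCC-090 by 0.63, 0.54, 0.46 and 0.40 on the log2 scale, which did not pass (adjusted p = 0.167, 0.165, 0.227 and 0.336).

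Between the lines with JQ1, 6 of the 10 genes were higher in UPCI-SCC-090 and none was lower, where 44.9% of all genes tested differed in either direction. PLK1 averaged 14.2 ± 5.55 CPM in UPCI-SCC-090 and 5.46 ± 0.584 CPM in UM-SCC-47, a log2 difference of 1.38 ± 0.30 (adjusted p = 0.00286). FOXM1 averaged 9.61 ± 5.36 CPM and, in UM-SCC-47, 3.91 ± 0.326 CPM, a difference of 1.30 ± 0.36 (adjusted p = 0.012). AURKB differed by 1.26 ± 0.32, TPX2 by 0.92 ± 0.19, LIN52 by 1.06 ± 0.24 and LIN9 by 2.02 ± 0.62 (adjusted p = 0.00734, 0.00217, 0.00312 and 0.0198). MYBL2 and AURKA ended at nearly the same level in both lines: MYBL2 averaged 20.01 ± 7.70 CPM in UPCI-SCC-090 and 19.97 ± 1.63 CPM in UM-SCC-47, and AURKA 14.8 ± 3.83 CPM and, in UM-SCC-47, 14.5 ± 3.46 CPM. Their differences did not pass, with estimates of 0.00 ± 0.30 for MYBL2 and 0.03 ± 0.23 for AURKA that changed sign in several alternatives. Fitted on the 6 JQ1 libraries alone, of the 6 only LIN9 passed, and without UM-SCC-47 JQ1 replicate 3 only LIN9 and PLK1 did. FOXM1 was also lost without UPCI-SCC-090 JQ1 replicate 1 (adjusted p = 0.0663), and LIN9 without UPCI-SCC-090 JQ1 replicate 3 or UM-SCC-47 JQ1 replicate 1 or 2.

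The response itself differed between the lines for TPX2, 1 of the 10 genes, against 6.61% of all genes tested. Its fall was smaller in UPCI-SCC-090 by 1.18 ± 0.27 on the log2 scale (adjusted p = 0.0243). The call was lost in 8 of the 12 fits without 1 library (adjusted p up to 0.123, without UPCI-SCC-090 DMSO replicate 3) and without the 3 steepest libraries (0.0933). The fall of AURKA was smaller by 1.06 ± 0.32, which did not pass (adjusted p = 0.0803), nor did the differences for PLK1 (0.91 ± 0.42), AURKB (0.86 ± 0.45), LIN52 (0.86 ± 0.33), RBL2 (0.79 ± 0.71) and FOXM1 (0.66 ± 0.50). MYBL2 was the single regulator whose estimate went the other way (-0.53 ± 0.42, adjusted p = 0.564), and with the GC correction TPX2, AURKA, PLK1 and AURKB passed.

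Most genes of G2 and mitosis known to be bound by MYB-MuvB and FOXM1 fell in both lines; the lists described here hold none of the 10 genes and share some genes with each other. Of 46 such genes, all tested, 27 fell in UPCI-SCC-090 and 38 in UM-SCC-47 and 0 rose, with median log2 fold changes of -2.80 and -3.17. Over all genes tested, 20.4% fell and 7.67% rose in UPCI-SCC-090, and 25.5% fell and 16.1% rose in UM-SCC-47. MKI67, the Ki-67 proliferation antigen, had a mean of 1.25 ± 0.862 CPM in JQ1-treated UPCI-SCC-090 cells and 90.01 ± 88.1 CPM in DMSO-treated ones (SD, n = 3), a log2 fold change of -6.29 ± 1.07 that was -5.01 without DMSO replicate 1. In UM-SCC-47 MKI67 averaged 2.67 ± 3.42 CPM with JQ1 and 117 ± 47.8 CPM with DMSO, a log2 fold change of -5.47 ± 1.02 that was -7.26 without JQ1 replicate 3. PIF1, a DNA helicase, changed by -3.98 in UPCI-SCC-090 and -5.10 in UM-SCC-47, SAPCD2 by -3.93 in UPCI-SCC-090 and the mitotic kinesin KIF20A by -4.33 in UM-SCC-47. The count in UPCI-SCC-090 was 17 without JQ1 replicate 1, 42 without the libraries with the steepest GC trends and 43 with the GC correction.

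Partners of AURKB in the chromosomal passenger complex, recruiters of the complex and other genes linked to AURKB fell in large part. These other genes include KIF2C, KIF23, RACGAP1, MKI67 and AURKC. Of 13 genes, 9 fell in UPCI-SCC-090 and 11 in UM-SCC-47 and 0 rose, against 20.4% and 25.5% of all genes that fell. The medians were -2.88 and -3.35. INCENP, the scaffold of the complex, averaged 4.38 CPM in UPCI-SCC-090 with JQ1 and 63.7 CPM with DMSO, a change of -3.99 ± 0.38. HASPIN, the histone kinase that marks the centromere for the complex, changed by -3.41 in UPCI-SCC-090, and SGO1, the guardian of centromere cohesion, by -4.10 in UM-SCC-47.

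Among 17 other mitotic kinases, 8 fell and 1 rose in UPCI-SCC-090 and 13 fell and 1 rose in UM-SCC-47, with medians of -2.30 and -2.76. Over all genes tested, 20.4% fell and 7.67% rose in UPCI-SCC-090, and 25.5% fell and 16.1% rose in UM-SCC-47. Citron kinase (CIT), which acts in cytokinesis, had the lowest log2 fold change of this list in both lines, -4.29 in UPCI-SCC-090 and -4.50 in UM-SCC-47. PKMYT1, which holds CDK1 inactive, changed by -3.28 in UPCI-SCC-090, and the checkpoint kinases BUB1B and BUB1 by -3.82 and -3.35 in UM-SCC-47. NEK9, which acts below PLK1 in spindle assembly, rose in both lines: it averaged 237 CPM in UPCI-SCC-090 with JQ1 and 111 CPM with DMSO (0.98 ± 0.18, adjusted p = 0.00884), and 210 CPM in UM-SCC-47 with JQ1 and 104 CPM with DMSO (0.99 ± 0.12, adjusted p = 0.00112). In UPCI-SCC-090 the number that fell was 3 without JQ1 replicate 1, where NEK9 was no longer called, 4 without DMSO replicate 1 or 3 and 13 with the GC correction, and in UM-SCC-47 it was 8 without JQ1 replicate 1.

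The relatives of PLK1 and the aurora kinases gave mixed changes. Of the 4 other polo-like and aurora kinases tested, PLK2, a stress-induced kinase, rose in UPCI-SCC-090 (85.5 CPM with JQ1 and 20.9 CPM with DMSO, 1.95 ± 0.43, adjusted p = 0.0174). PLK3 rose in UM-SCC-47 (16.8 CPM with JQ1 and 5.15 CPM with DMSO, 1.69 ± 0.19, adjusted p = 0.00105), with a change of 1.06 ± 0.34 in UPCI-SCC-090 that did not pass (adjusted p = 0.0613). PLK4, the kinase of centriole duplication, fell in UM-SCC-47 (1.55 CPM with JQ1 and 9.01 CPM with DMSO, -2.55 ± 0.76, adjusted p = 0.0362), and its change in UPCI-SCC-090 did not pass (-2.78 ± 1.29, adjusted p = 0.163). The PLK2 call was lost without UPCI-SCC-090 JQ1 replicate 1, DMSO replicate 2 or DMSO replicate 3, and the PLK4 call without UM-SCC-47 JQ1 replicate 1 or any 1 DMSO replicate.

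Partners and substrates of AURKA, TPX2 and PLK1 also held many genes that fell. Of 20 genes, 8 fell in UPCI-SCC-090 and 12 in UM-SCC-47 and 0 rose, against 20.4% and 25.5% of all genes that fell. The medians were -2.44 and -1.98. TACC3, which AURKA places on the spindle, averaged 11.4 CPM in UPCI-SCC-090 with JQ1 and 149 CPM with DMSO (-3.85 ± 0.43), and CEP55, an abscission protein, changed by -3.16 there. PRC1, which bundles the central spindle and docks PLK1, averaged 19.1 CPM in UM-SCC-47 with JQ1 and 285 CPM with DMSO (-3.92 ± 0.13). Without the libraries with the steepest GC trends 16 of the 20 fell in UPCI-SCC-090.

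Among CDK inhibitors, cyclins and CDKs, the gene of the inhibitor p21 rose in both lines while mitotic cyclins fell. CDKN1A, the p21 gene, whose product keeps DREAM assembled by blocking cyclin-dependent kinases, averaged 2095 CPM in UPCI-SCC-090 with JQ1 and 138 CPM with DMSO (3.80 ± 0.27, adjusted p = 0.00323). In UM-SCC-47 CDKN1A averaged 1025 CPM with JQ1 and 132 CPM with DMSO (2.94 ± 0.18, adjusted p = 0.000168). It was the 1 gene that rose of the 13 tested in this list, of which 7 fell in each line. Over all genes tested, 20.4% fell and 7.67% rose in UPCI-SCC-090, and 25.5% fell and 16.1% rose in UM-SCC-47. The medians of the list were -1.23 in UPCI-SCC-090 and -0.59 in UM-SCC-47. The cyclins CCNB2, CCNA2 and CCNB1 changed by -2.94, -2.75 and -2.49 in UPCI-SCC-090 and by -3.91, -3.86 and -3.01 in UM-SCC-47. These cyclins are also in the list of G2 and mitosis genes bound by MYB-MuvB and FOXM1. CDKN1B, the other CDK inhibitor of the list, changed by 0.32 in UPCI-SCC-090 (adjusted p = 0.516) and by -0.41 in UM-SCC-47 (adjusted p = 0.0422). The part of CDKN1A in the falls was not tested. In UPCI-SCC-090 the number that fell was 2 without JQ1 replicate 1, 4 without JQ1 replicate 3 and 3 without DMSO replicate 3, and in UM-SCC-47 it was 4 without JQ1 replicate 1.

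Of 10 other genes of DREAM and MuvB, 1 fell in UPCI-SCC-090 and 3 in UM-SCC-47 and 0 rose, near the 20.4% and 25.5% of all genes tested that fell, with medians of -0.32 and -0.39, where all genes had -0.14 and -0.03. TFDP1, the dimer partner of E2F factors, averaged 116 CPM in UPCI-SCC-090 with JQ1 and 184 CPM with DMSO (-0.78 ± 0.17), and 119 CPM in UM-SCC-47 with JQ1 and 233 CPM with DMSO (-0.98 ± 0.13). The MuvB subunits outside the 3 genes described above include RBBP4, which binds histones, and LIN37. RBBP4 changed by -0.70 ± 0.13 in UM-SCC-47, and LIN37 by 0.37 in UPCI-SCC-090 and 0.26 in UM-SCC-47, which did not pass (adjusted p = 0.469 and 0.27). In UPCI-SCC-090 the number that fell was 0 with DESeq2, relative log expression factors or the GC correction, and without JQ1 replicate 1, JQ1 replicate 2, DMSO replicate 2 or DMSO replicate 3, and in UM-SCC-47 it was 5 without JQ1 replicate 3.

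E2F genes of G1 and S fell with smaller medians than the G2 and mitosis genes, -1.22 in UPCI-SCC-090 and -1.66 in UM-SCC-47. Of 28 genes, 17 fell in UPCI-SCC-090 and 20 in UM-SCC-47 and 0 rose, against 20.4% and 25.5% of all genes that fell. The licensing factor CDT1 changed by -2.66 and the replication factor GINS1 by -2.79 in UPCI-SCC-090, CHAF1A of chromatin assembly by -2.65 in UPCI-SCC-090 and -2.92 in UM-SCC-47, and CDC45 and CDC25A by -2.84 and -2.79 in UM-SCC-47. The number that fell in UPCI-SCC-090 was 7 without JQ1 replicate 1, 8 without JQ1 replicate 3, 11 without DMSO replicate 2, 9 without DMSO replicate 3 and 8 with relative log expression factors.

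Some of the other forkhead factors fell, and none was called as a rise in the main fits. Of 16 tested, 6 fell in UPCI-SCC-090 and 5 in UM-SCC-47 and 0 rose, against 20.4% and 25.5% of all genes that fell, with medians of -0.72 and -0.15. FOXK1 fell in both lines, with log2 fold changes of -3.26 in UPCI-SCC-090 and -2.30 in UM-SCC-47. So did FOXJ2, with -2.31 and -1.22, and FOXA1, with -1.12 and -0.80. FOXL2 changed by -1.91 in UPCI-SCC-090, and FOXQ1 by -3.71 in UM-SCC-47. Without UPCI-SCC-090 JQ1 replicate 1 the number that fell in that line was 3, and with the GC correction 5 forkhead genes rose in UM-SCC-47.

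**Figure D5:**
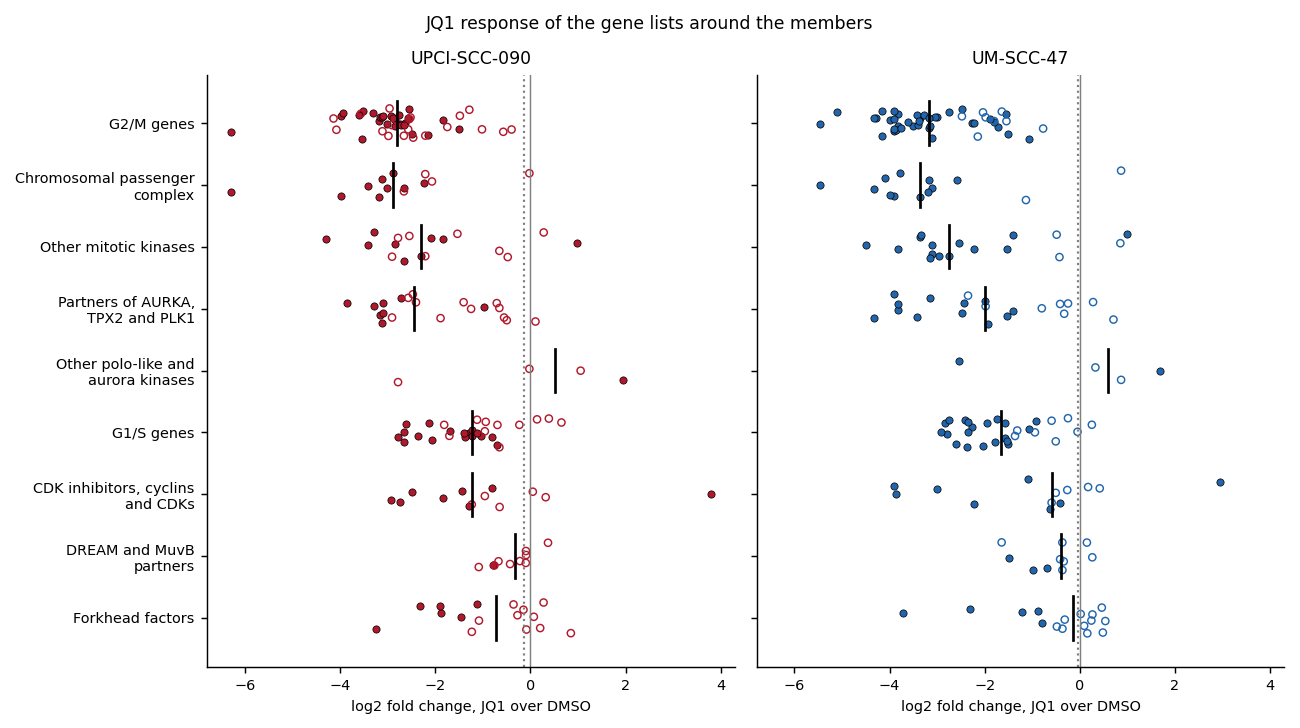
Log2 fold change of JQ1 over DMSO for the genes of 9 lists (1 point per gene; filled, adjusted p under 0.05), UPCI-SCC-090 on the left and UM-SCC-47 on the right, with a black bar at each list's median and a dotted line at the median of all genes tested. The medians of the G2 and mitosis genes are -2.80 and -3.17, and those of the DREAM and MuvB partners -0.32 and -0.39.

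The genes most like a member were those with the highest Pearson correlation of log2 CPM, centered on the mean of its line, over the 12 libraries, among 12037 genes tested in both lines. For FOXM1 and MYBL2 these correlations mostly carry the difference between JQ1 and DMSO. RBL2 overlapped between JQ1 and DMSO in both lines, so this does not hold for RBL2. All the correlations share library depth and GC trend, and are descriptions. FOXM1 was most like KIF18B, HROB, IQGAP3, ESPL1 and RAD54L (r of 0.997 to 0.998), with PLK1 next in sixth place and AURKB at rank 27. MYBL2 was most like SYDE1, C2CD4C, C3orf18, CDC25B and TYRO3 (r of 0.996 to 0.998), with FOXM1 at rank 76. LIN9 was most like VRK1, CENPK, HMMR, KIF18A and TTK (r of 0.977 to 0.983), genes of chromatin and the mitotic spindle, and RBL2 most like LARS1, MSH6, ZW10, APAF1 and MFSD6 (r of 0.986 to 0.991). LIN9 had a correlation of 0.75 with FOXM1, RBL2 one of 0.21 with FOXM1 and 0.89 with LIN54.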

How the data were processed

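RNA was sequenced from 12 libraries (rRNA-depleted, stranded total RNA) after 72 h with JQ1 or DMSO. The authors deposited estimated counts per gene, for which the processing notes list Salmon 0.8.2 and DESeq2 1.28.0; no source used here gives the transcript index or genome build. The estimated counts were rounded and tested with edgeR 4.0.16 (quasi-likelihood test, TMM scaling, filterByExpr with a minimum of 10 counts and 15 in total, Benjamini-Hochberg adjustment over all genes tested, threshold 0.05), per line for JQ1 against DMSO and over all 12 libraries between lines. The procedure was tested on simulated data. The labels do not say whether replicates were separate cultures, so the p-values reflect the spread among these libraries alone, and that spread may be technical. Levels are CPM. Of the gene IDs, 20015 matched GENCODE 44 (on GRCh37) and 723 did not. The members and the gene lists were chosen with earlier results of these data known. Named genes of a list were, per line, up to 3 falls and 3 rises among called genes. Their groups did not overlap and their higher group averaged 5 CPM or more. The 5 genes most like FOXM1, MYBL2, LIN9 and RBL2 were named too. CDKN1B, FOXA1, LIN37 and the epithelial markers are named outside this rule. Alternatives were other scalings, no filter, DESeq2 1.42.0, a GC correction (spline of 5 degrees of freedom), other sets of libraries, each library left out and a replicate block.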

Additional observations from a re-analysis of the deposited data

Results flagged for a closer look

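The JQ1 response differed between UPCI-SCC-090 and UM-SCC-47, by the test of the difference itself, for TPX2 (1.18 ± 0.27 on the log2 scale, adjusted p = 0.0243) and for 4 other genes named above. KIF20A, a mitotic kinesin that carries the passenger complex, fell in both lines, and its fall was smaller in UPCI-SCC-090 by 1.30 ± 0.28 (adjusted p = 0.0174). PLK2 rose in UPCI-SCC-090 (1.95) and did not pass in UM-SCC-47 (0.33, adjusted p = 0.0785), a difference of 1.69 ± 0.38 (adjusted p = 0.0221). FOXQ1 differed most, by 4.68 ± 0.47 (adjusted p = 0.000307): it changed by 0.85 in UPCI-SCC-090 (adjusted p = 0.0733) and by -3.71 in UM-SCC-47 (adjusted p = 0.000307). FOXL2 differed by -2.35 ± 0.44 (adjusted p = 0.00955), with -1.91 in UPCI-SCC-090 and 0.54 in UM-SCC-47 (adjusted p = 0.12).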

How the results depend on the processing

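The falls of FOXM1, MYBL2, PLK1, AURKA, AURKB and TPX2 in both lines passed in all alternatives run. The counts over all genes were less stable. In UPCI-SCC-090 the 2680 falls became 1755 with relative log expression factors, and the 1009 rises became 1915 in 1 fit over all 12 libraries, 3597 with the GC correction, 635 with library size only and 3734 with the replicate block and GC correction. In UM-SCC-47 the 2163 rises became 1349 in 1 fit over all 12 libraries, 3955 with the GC correction and 3704 with the block and GC correction. Of the differences between responses, the 527 lower in UPCI-SCC-090 became 1374 with the GC correction, 1209 with the block and GC correction and 325 without the steepest GC libraries, and the 424 higher became 1129 with the GC correction and 966 with the block and GC correction; members higher were 4 with the GC correction and 0 without the steepest GC libraries. Between lines with DMSO, genes higher in UPCI-SCC-090 were 5219 with the block and GC correction, and members higher were 4 with the GC correction and 5 with the block and GC correction. Between lines with JQ1, genes higher were 1839 in the 6 libraries compared and 5342 with the block and GC correction, and members higher were 1 in the 6 libraries. Relative to LIN9 alone the ratio difference was -3.03 for FOXM1 and -1.85 for TPX2 in UM-SCC-47 and -1.19 for TPX2 in UPCI-SCC-090; relative to LIN52 alone it was -4.47 for FOXM1 in UM-SCC-47, and -2.52 for AURKA and -2.98 for TPX2 in UPCI-SCC-090. The cause of these shifts was not tested.

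Estimates near 0 changed sign. In UPCI-SCC-090 LIN52 became -0.14 with library size only, and RBL2 -0.19 with library size only, -0.13 with the replicate block, -0.010 with the block and GC correction and -0.46 without the steepest GC libraries. The difference of responses of LIN54 became -0.52 without the steepest GC libraries. Between lines with DMSO, LIN54 became 0.023 with library size only and 0.19 without the steepest GC libraries, and RBL2 0.063 with the GC correction, 0.053 with the block and GC correction and 0.025 without the steepest GC libraries. Between lines with JQ1, MYBL2 became -0.10 with relative log expression factors, -0.12 with upper-quartile factors, -0.10 with library size only, -0.022 with the replicate block, -0.10 with DESeq2 and -0.17 in the 6 libraries. AURKA became -0.10 with relative log expression factors, -0.11 with upper-quartile factors, -0.050 with library size only, -0.091 with DESeq2, -0.13 without the steepest GC libraries and -0.15 in the 6 libraries, and LIN54 -0.33 without the steepest GC libraries and -0.0061 in the 6 libraries.

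With 1 library left out, falls in UPCI-SCC-090 ranged from 1008 to 2800 and rises from 370 to 1301, and rises in UM-SCC-47 from 1197 to 3051. Differences of responses ranged from 256 to 1121 lower and 201 to 651 higher, with 0 to 2 members higher. Between lines, members higher ranged from 0 to 1 with DMSO and from 2 to 7 with JQ1, and genes higher with JQ1 from 2181 to 3763. In UPCI-SCC-090 LIN52 ranged from -0.0060 to 0.29, LIN54 from -1.96 to 0.031 and RBL2 from -0.33 to 0.61. The difference of responses ranged from -0.25 to 0.60 for LIN9 and from -0.94 to 1.01 for LIN54. Between lines with DMSO LIN52 ranged from -0.11 to 0.24, LIN54 from -0.95 to 0.38 and RBL2 from -0.73 to 0.22, and with JQ1 MYBL2 ranged from -0.43 to 0.29, LIN54 from -0.94 to 0.72 and AURKA from -0.43 to 0.24.

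Replicate numbers were not taken as pairs in the main fits. Deviations from the group means of same-numbered JQ1 and DMSO libraries correlated at 0.10, 0.79 and 0.21 in UPCI-SCC-090 and at -0.15, 0.20 and 0.43 in UM-SCC-47. Those of libraries of unlike number correlated at -0.85 to 0.79 in UPCI-SCC-090 and -0.35 to 0.28 in UM-SCC-47. The values share the GC trends of the libraries, so they cannot decide whether the numbers pair the samples. With the replicate block alone, 3143 genes fell and 1361 rose in UPCI-SCC-090, and 3450 fell and 2164 rose in UM-SCC-47. With 3 libraries a group, even changes of the core larger than their standard errors did not pass, such as LIN9 in UPCI-SCC-090 (-1.81 ± 0.60) and LIN54 in UM-SCC-47 (-0.97 ± 0.62).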
